A study of Mus musculus with 6 samples.

Results

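A set of 10 genes of mitochondrial fission and fusion was followed in B cells taken from mouse lung, in 3 samples from 5xFAD mice and 3 from wild-type (WT) mice. They are Dnm1l, Fis1, Mff, Mfn1, Mfn2, Opa1, Oma1, Yme1l1, Immt and Dnm2, and they make up 10 of the 22481 genes in the deposited expression table, 1 table row each, matched by symbol. Both groups were C57BL/6 mice 3 months of age. The 5xFAD mouse carries human transgenes with mutations of familial Alzheimer's disease, driven by the neuronal Thy1 promoter, and models amyloid deposition in brain; WT mice lack them. The cells were isolated by magnetic sorting and frozen, and total RNA was depleted of ribosomal RNA and sequenced. Whether the samples came from separate animals is not in the labels, so the spread below is that between samples and may in part be technical. The set was chosen by the expression values of 1 of its genes: Dnm1l had been among the few genes called different between these same samples, and its partners were added for their function. For these 10 genes the comparison of 5xFAD with WT is therefore given as a description with no p-value, and the call of Dnm1l is stated only as what chose the set. Expression is given on 2 deposited scales: estimated counts, in which 1 fragment was worth 0.917 to 1.04 counts depending on the library, and FPKM, the fragments scaled to transcript length and library depth.

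Mitochondria divide and join continuously. Division is carried out by Drp1, the dynamin-related GTPase that Dnm1l encodes, which is drawn from the cytosol by receptors in the outer membrane such as Mff, assembles into a ring and constricts the organelle; Fis1 is an outer membrane protein of the same process, and Dnm2, the ubiquitous dynamin best known for cutting endocytic vesicles, has been described at late constriction sites. The mitofusins Mfn1 and Mfn2 join outer membranes and Opa1 joins inner membranes. Opa1 is cut by the inner membrane proteases Oma1 and Yme1l1, and Immt, also called mitofilin or Mic60, is the core of the MICOS complex at crista junctions. In lymphocytes the shape of mitochondria is known to change with activation.

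The libraries were shallow. Estimated counts over all listed genes ran from 693172 to 782297 in the 5xFAD libraries and from 628581 to 692912 in the WT libraries, and between 37.5% and 45.7% of them fell on a single gene, Lars2. Genes with at least 0.5 estimated counts numbered 10490 to 11780 in 5xFAD libraries and 7929 to 10381 in WT libraries. All 12 B cell markers looked up were detected, Cd79a, a part of the B cell receptor complex, at 121 ± 31.96 FPKM in 5xFAD samples and 74.1 ± 18.5 FPKM in WT samples (SD, n = 3 each), and markers of endothelium, macrophages, neutrophils and lung epithelium were present too. The 10 genes together held 0.0898% to 0.106% of the counts outside Lars2 in 5xFAD libraries and 0.0685% to 0.0983% in WT libraries, so every value below rests on few fragments. In bulk RNA, fewer cells of a type and less RNA per cell cannot be told apart.

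The promoters of 2 of the genes are shown because these were the genes whose 5xFAD libraries all lay above the WT libraries both in estimated counts and in FPKM. Of all tested genes, 14.3% had that form in counts and 13.0% in FPKM, and the share with both was not counted. This only selected what is shown, and the values of Dnm1l had also chosen the set. Each window runs from 250 bases before to 50 bases after a transcription start in RefSeq (GRCm38.p6), 5′ to 3′ on the strand of the gene. The Dnm1l window is chr16:16358982-16359281 on the minus strand, at the start that lies at the edge of the locus in the deposited table; a second RefSeq start lies further inside the gene. The Opa1 window is chr16:29579084-29579383 on the plus strand. Capitals mark the GC box GGGCGG and the core CGCATGCG of the motif of NRF1, a factor known for nuclear genes of mitochondria, each searched on both strands.
Dnm1l: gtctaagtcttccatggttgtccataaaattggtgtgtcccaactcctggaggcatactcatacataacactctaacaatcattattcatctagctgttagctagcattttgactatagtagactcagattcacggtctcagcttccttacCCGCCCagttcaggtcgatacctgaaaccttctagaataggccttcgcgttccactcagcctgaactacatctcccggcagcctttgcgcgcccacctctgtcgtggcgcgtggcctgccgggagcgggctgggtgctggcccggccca
Opa1: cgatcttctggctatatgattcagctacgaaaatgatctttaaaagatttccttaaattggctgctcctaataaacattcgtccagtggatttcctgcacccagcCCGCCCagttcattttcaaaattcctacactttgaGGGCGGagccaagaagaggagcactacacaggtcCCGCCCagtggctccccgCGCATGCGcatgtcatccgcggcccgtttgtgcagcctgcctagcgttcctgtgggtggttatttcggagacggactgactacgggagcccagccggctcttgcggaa
The Opa1 window held 3 GC boxes and 1 NRF1 core, and the Dnm1l window held 1 GC box and no NRF1 core; no match overlapped another. Over all 32851 promoter windows of the same length, 35.7% held a GC box and 1.87% an NRF1 core. The 10 genes had 15 such windows, of which 12 held a GC box and 1, that of Opa1, an NRF1 core. These matches describe the sequence and were not tied to the expression values.

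Dnm1l (ENSMUSG00000022789, chromosome 16, 16312228 to 16359030 of GRCm38, minus strand) showed an all-or-nothing form. Estimated counts were 43.4, 25.5 and 41.3 in the 5xFAD libraries, against 0.0255, 0.0268 and 0.0276 in the WT libraries. In FPKM it was at 5.50, 3.21 and 5.23 in 5xFAD and at 0.00324, 0.00339 and 0.00351 in WT. The groups lie far apart, and the WT values are far under a single fragment. A value under 0.5 counts may come from an estimate that failed, so no fold change is given. The WT values were also nearly equal, with a coefficient of variation of 3.95% in counts, against 26.6% in 5xFAD. No other gene of the table shares the locus of Dnm1l. The FPKM obtained per count was 0.126 to 0.127 in all 6 libraries, so counts and FPKM differ by a constant for this gene.

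Dnm1l was not alone in this form. Of 3113 genes with at least 20 estimated counts in every 5xFAD library, 7 were under 0.5 in every WT library, among them Dnm1l, Golph3, Irf2, Nfkb2, Ube2e1 and Uri1. In the other direction, 1 of 2685 genes with at least 20 counts in every WT library was under 0.5 in every 5xFAD library, Pcdh18. The 5 named genes whose log2(FPKM + 1) followed Dnm1l most closely over the 6 libraries were Iba57, C1qbp, Nucb2, Snx6 and Uri1, with Pearson correlations of 0.997 or more, given here as a description. With WT values all near 0, such a correlation is set largely by the gap between the genotypes. C1qbp, a mitochondrial matrix protein, was at 14.6, 7.44 and 13.9 FPKM in 5xFAD and listed at 0 in each WT library. Iba57, a mitochondrial iron-sulfur cluster assembly factor, was at 2.72, 1.72 and 2.61 FPKM in 5xFAD and listed at 0 in each WT library. Its counts were only 3.99, 8.51 and 4.59 in 5xFAD. Uri1 had 44.9, 22.8 and 32.1 counts in 5xFAD and at most 0.000135 in WT. Among the other 9 fission and fusion genes, Pearson correlations with Dnm1l ran from -0.82 for Fis1 to 0.85 for Yme1l1 and Opa1.

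The partners of Dnm1l in fission did not share its form. Fis1 (ENSMUSG00000019054, chromosome 5) had 5.98, 24.6 and 10.1 counts in the 5xFAD libraries, against 40.5, 23.1 and 32.2 in the WT libraries. The lowest WT library lay just under the highest 5xFAD library, so the groups overlapped. Fis1 averaged 10.7 ± 7.91 FPKM in 5xFAD and 25.1 ± 7.63 FPKM in WT (SD, n = 3 each), and the log2 fold change of 5xFAD over WT fitted to the counts by edgeR was -1.42 (SE 0.92), or -2.10 without 5xFAD replicate 2. It was 1 of 2 genes of the set with a negative value. Mff (ENSMUSG00000026150, chromosome 1) had 5.98, 31.2 and 18.3 counts in 5xFAD, against 0.989, 11.0 and 0 in WT. The groups overlapped through 5xFAD replicate 1 and WT replicate 2, and the log2 fold change was 1.99 (SE 1.45), or between 1.33 without WT replicate 3 and 4.71 without WT replicate 2. The table gives Mff 1 locus with Col4a3, a collagen gene, which had 5.98, 11.4 and 11.9 counts in 5xFAD and 0.989, 4.02 and 0 in WT, so the division of reads between them is uncertain. All WT libraries thus held Fis1 transcripts, while Mff was above 1 count only in WT replicate 2. Fis1, Mff and Dnm1l summed to 32.3 to 41.5 counts in WT libraries, and Dnm1l made up at most 0.0857% of that sum. In 5xFAD libraries the sum was 55.4 to 81.3 counts and the Dnm1l share 31.4% to 78.4%.

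**Figure D1:**
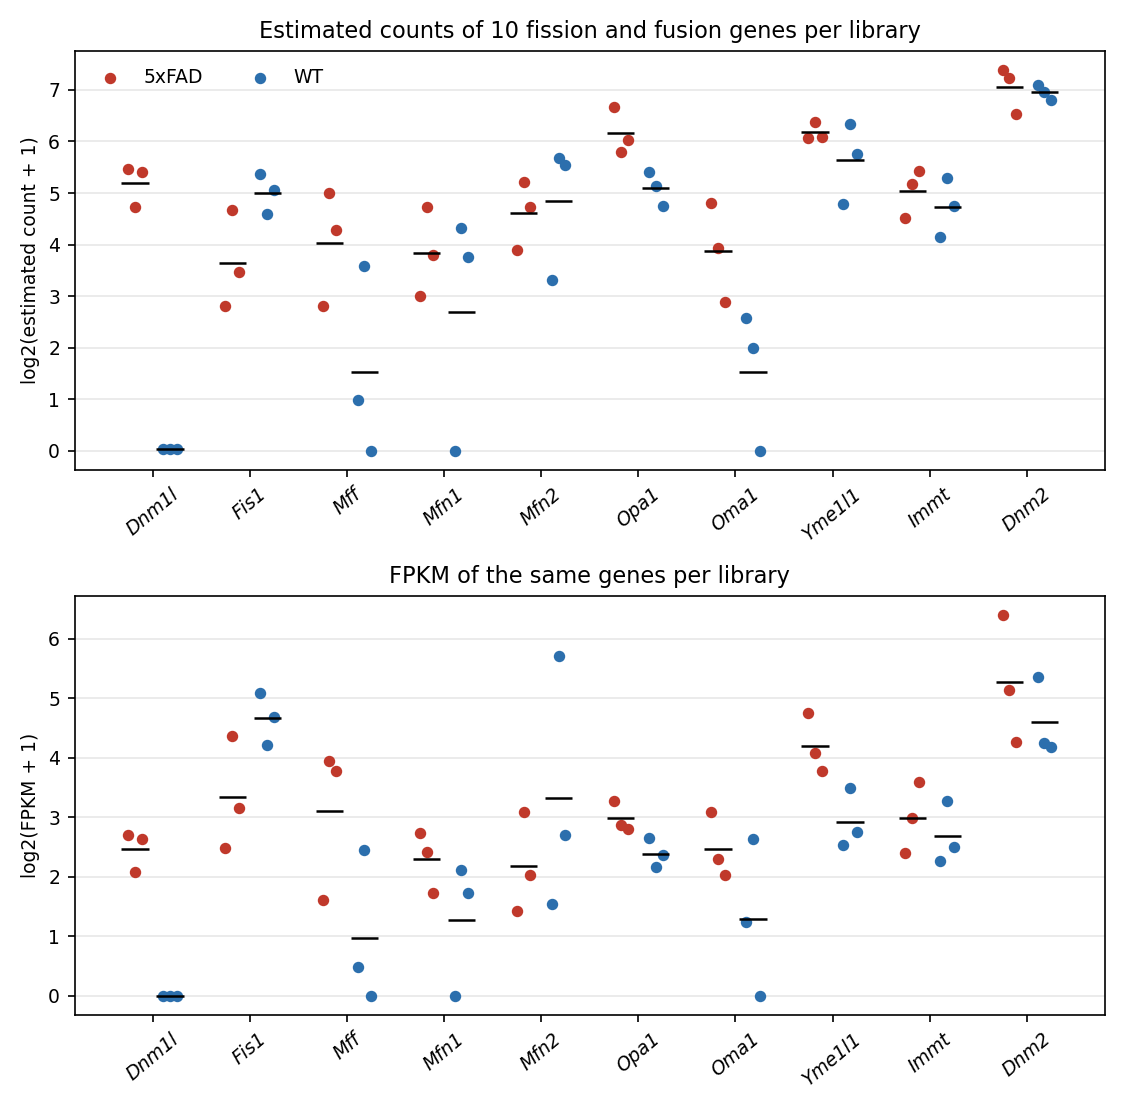
Values of the 10 genes in each library as log2(estimated count + 1), above, and log2(FPKM + 1), below; each point is a library, red for 5xFAD and blue for WT, and the black bar is the mean of the 3 points. The 3 WT points of Dnm1l lie at 0, while WT points of its partner Fis1 lie between 23.1 and 40.5 counts.

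Among fusion genes, Opa1 stood higher and the mitofusins did not separate. Opa1 (ENSMUSG00000038084, chromosome 16, 29579334 to 29654884, plus strand) had 101, 54.9 and 64.2 counts in the 5xFAD libraries, against 41.5, 34.1 and 26.0 in the WT libraries. The groups did not overlap, in FPKM as well, at 8.66, 6.33 and 6.01 against 5.25, 3.46 and 4.14. The log2 fold change was 1.05 (SE 0.57), and it lay between 0.58, without 5xFAD replicate 1, and 1.19 over the 16 alternatives of the processing. Mfn1 (ENSMUSG00000027668, chromosome 3) had 6.98, 25.5 and 12.8 counts in 5xFAD, against 0, 19.1 and 12.5 in WT. The groups overlapped throughout, with a log2 fold change of 0.34 (SE 1.30) that turned negative without 5xFAD replicate 2 or without WT replicate 1, its lowest value being -0.25. Mfn2 (ENSMUSG00000029020, chromosome 4) had 13.96, 35.9 and 25.7 counts in 5xFAD, against 8.90, 50.2 and 45.8 in WT, with a log2 fold change of -0.67 (SE 0.81) that lay between -1.14 without WT replicate 1 and -0.39 without WT replicate 2. In FPKM its WT libraries stood at 1.92, 51.1 and 5.49, so that WT replicate 2 alone carried the WT mean of 19.5 ± 27.4 FPKM, against 4.09 ± 3.06 FPKM in 5xFAD (SD, n = 3 each).

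The proteases that cut Opa1 had every 5xFAD library above every WT library on 1 scale each. That form was shared by 14.3% of all tested genes in counts and 13.0% in FPKM. Oma1 (ENSMUSG00000035069, chromosome 4), the stress-activated protease, had 26.9, 14.2 and 6.42 counts in 5xFAD, against 4.94, 3.01 and 0 in WT. The counts did not overlap, but the FPKM values did, at 7.47, 3.93 and 3.10 in 5xFAD against 1.37, 5.20 and 0 in WT. The log2 fold change was 2.51 (SE 1.51) on counts of under 30 in every library. It lay between 1.65 without 5xFAD replicate 1 and 3.23 without WT replicate 1, and the difference of mean log2(FPKM + 1) was 1.18. Yme1l1 (ENSMUSG00000026775, chromosome 2), the constitutive i-AAA protease, showed the reverse. Its FPKM values did not overlap, at 25.8, 15.99 and 12.8 in 5xFAD against 4.77, 10.2 and 5.71 in WT. Its counts did, at 65.8, 82.3 and 67.0 in 5xFAD against 26.7, 80.4 and 53.0 in WT, with a log2 fold change of 0.28 (SE 0.54) that became -0.06 without WT replicate 1.

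The remaining genes differed little beside their spread. Immt (ENSMUSG00000052337, chromosome 6) had 21.9, 35.0 and 42.2 counts in 5xFAD, against 16.8, 38.2 and 26.0 in WT, with a log2 fold change of 0.13 (SE 0.77). Dnm2 (ENSMUSG00000033335, chromosome 9) was the most abundant of the set, at 167, 149 and 91.7 counts in 5xFAD, against 135, 124 and 111 in WT. Its log2 fold change was 0.04 (SE 0.40), and the sign turned in 7 of 16 alternatives. In FPKM, Dnm2 was at 83.6, 34.1 and 18.2 in 5xFAD and at 40.1, 18.1 and 17.2 in WT, so replicate 1 was the highest in each genotype. Its locus also holds Tmed1, which had 17.1 counts in WT replicate 2 and under 1 count elsewhere. Dnm1l and Dnm2 are both dynamin GTPases, yet in WT libraries Dnm2 had over 100 counts while Dnm1l was read at almost none.

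**Figure D2:**
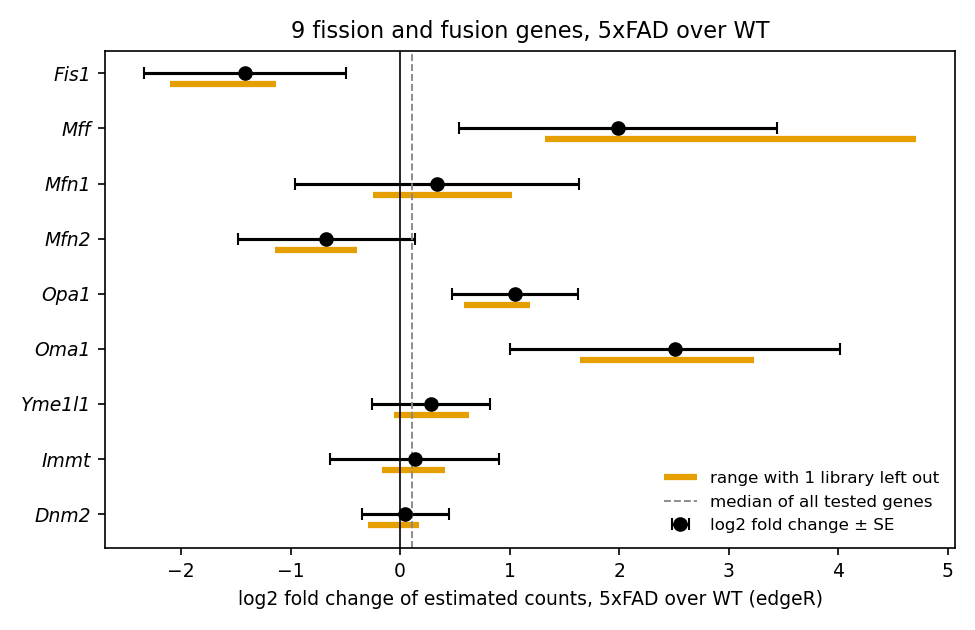
edgeR log2 fold change of estimated counts, 5xFAD over WT, for the 9 genes other than Dnm1l (points, bars of 1 SE), with the range when 1 library is left out (orange) and the median of all 9651 tested genes, 0.11 (dashed). Fis1, Mff, Mfn2, Opa1 and Oma1 keep 1 side of 0 in the orange range, and the other 4 cross it.

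Where counts and FPKM pointed apart, the length implied by the pair of values differed between libraries. FPKM per count, times length, was the same in each library for 52 genes over 3000 bases with 1 annotated transcript (library medians of 0.509). On that scale a length was read for each other FPKM value. For short transcripts it may not be a transcript length. Oma1 was read at 295 bases in WT replicate 2, under its shortest annotated transcript of 421 bases. For Dnm1l it was 4013 to 4050 bases in all libraries, beside a longest annotated transcript of 3966 bases in GENCODE M21, and for Fis1 it was 628 to 667 bases. The WT lengths of Dnm1l rest on 0.0255 to 0.0276 counts, which may be failed estimates, so they show no transcript read in WT. For Mfn2 it was 4245, 2430 and 4245 bases in 5xFAD and 2365, 499.9 and 4245 bases in WT. The 51.1 FPKM of Mfn2 in WT replicate 2 thus came with a length 8.49 times shorter than the longest, while its counts were 50.2 there and 45.8 in WT replicate 3. Yme1l1 was read at 1298, 2619 and 2671 bases in 5xFAD and at 2847, 4009 and 4729 bases in WT; every 5xFAD length lay under every WT length, which raises FPKM in 5xFAD at equal counts. Of the 6 annotated Yme1l1 transcripts, 1 is protein-coding, at 4707 bases, and the others are shorter. Opa1 lengths ran from 3197 to 5921 bases, Dnm2 lengths from 1015 to 3475 bases, and Oma1 lengths from 295 to 1836 bases. Of the 10 genes, 6 had a highest length of more than 2 times the lowest; among the 4 of the 10 with at least 10 counts in every library, these were Yme1l1 and Dnm2, beside 41.8% of all 3152 genes at that depth. Differences in isoform use and errors of assignment at this depth cannot be told apart from these columns.

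**Figure D3:**
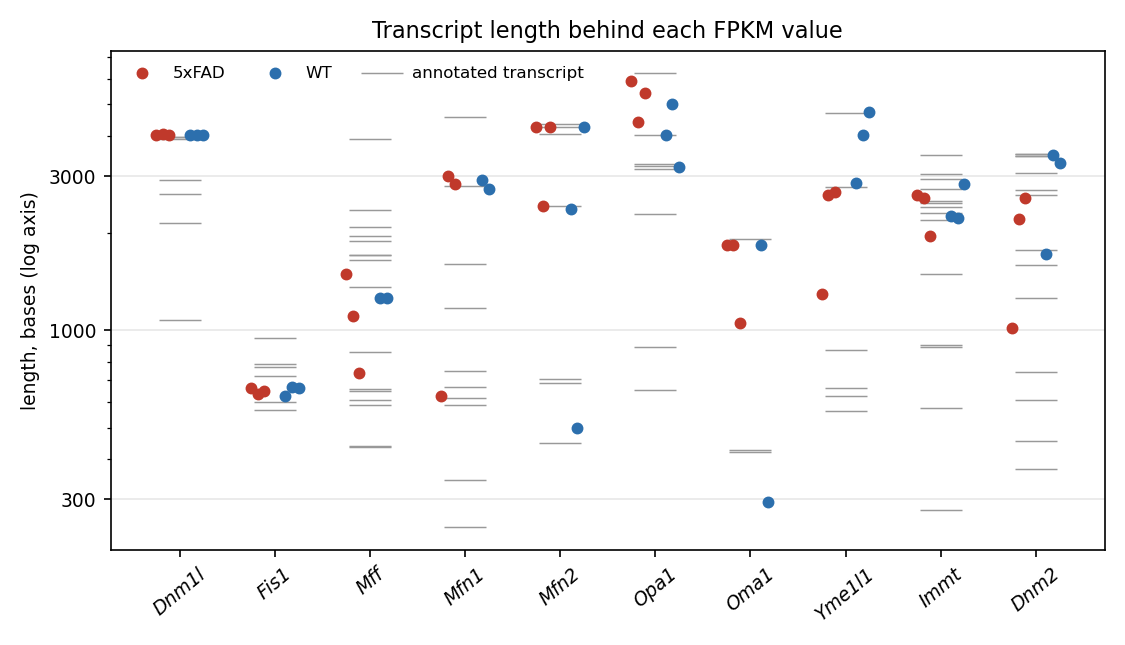
Length in bases (log axis) that turns the deposited count of a library into its deposited FPKM, on the scale of genes over 3000 bases. For short transcripts it may not be a transcript length. Red points are 5xFAD libraries, blue points WT libraries, and grey bars the transcripts annotated in GENCODE M21. Dnm1l stays between 4013 and 4050 bases and Fis1 between 628 and 667 bases, and Mfn2 drops to 499.9 bases in WT replicate 2. The WT points of Dnm1l rest on values far under a single fragment.

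The 10 genes are set here beside all tested genes with Dnm1l included. Its values chose the set, so no lean of the set is read. Of the 10, 8 had a positive edgeR log2 fold change of 5xFAD over WT and 2 a negative one, with a median of 0.31. Of the 9 genes other than Dnm1l, all but Fis1 and Mfn2 were positive. Among all 9651 tested genes 5221 were positive, with a median of 0.11. On log2(FPKM + 1) the split was also 8 to 2, where 5812 of the 9651 tested genes were positive. The median difference was 0.84, beside 0.24 for all tested genes. In estimated counts 3 of the 10 had every 5xFAD library above every WT library (Dnm1l, Opa1 and Oma1), a form that 14.3% of tested genes had, and 0 the opposite form, which 3.98% had. In FPKM the 3 were Dnm1l, Opa1 and Yme1l1, beside 13.0% of tested genes, with 0 in the opposite form, beside 4.42%. By edgeR with Benjamini-Hochberg adjustment over all genes, 1 of the 10, Dnm1l, was among the genes called higher (0.104% of those tested) and 0 were called lower (0.0104%). The set was built around that call, so nothing is read from these counts. Dnm1l passed the filter of a mean of 1 FPKM only through its 5xFAD libraries, which the other 9 genes did in each genotype. Its call was lost by limma on log2(FPKM + 1) or log2(FPKM + 0.1), with the RLE size factors, with counts summed per locus, and without 5xFAD replicate 1, 5xFAD replicate 3 or WT replicate 2.

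Summed over roles, the fission genes had 55.4, 81.3 and 69.7 counts in the 5xFAD libraries and 41.5, 34.2 and 32.3 in the WT libraries, which do not overlap. Without Dnm1l the sums were 12.0, 55.8 and 28.4 in 5xFAD and 41.5, 34.1 and 32.2 in WT, which overlap. The fusion genes had 122, 116 and 103 counts in 5xFAD and 50.4, 103 and 84.2 in WT, which overlap. The ratio of fission to fusion counts was 0.455, 0.699 and 0.679 in 5xFAD and 0.824, 0.330 and 0.383 in WT. WT replicate 1, with the fewest counts of fusion genes, gave the highest ratio of all, and the groups overlapped. In FPKM the ratio was 0.758, 2.05 and 2.26 in 5xFAD and 4.64, 0.381 and 2.07 in WT, wider still. Without Dnm1l the other 9 genes summed to 402 ± 57.9 counts in 5xFAD and 322 ± 55.0 counts in WT (SD, n = 3 each), and the groups overlapped. The sums of counts are not adjusted for depth, and total counts outside Lars2 averaged 440947 in 5xFAD and 377759 in WT.

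**Figure D4:**
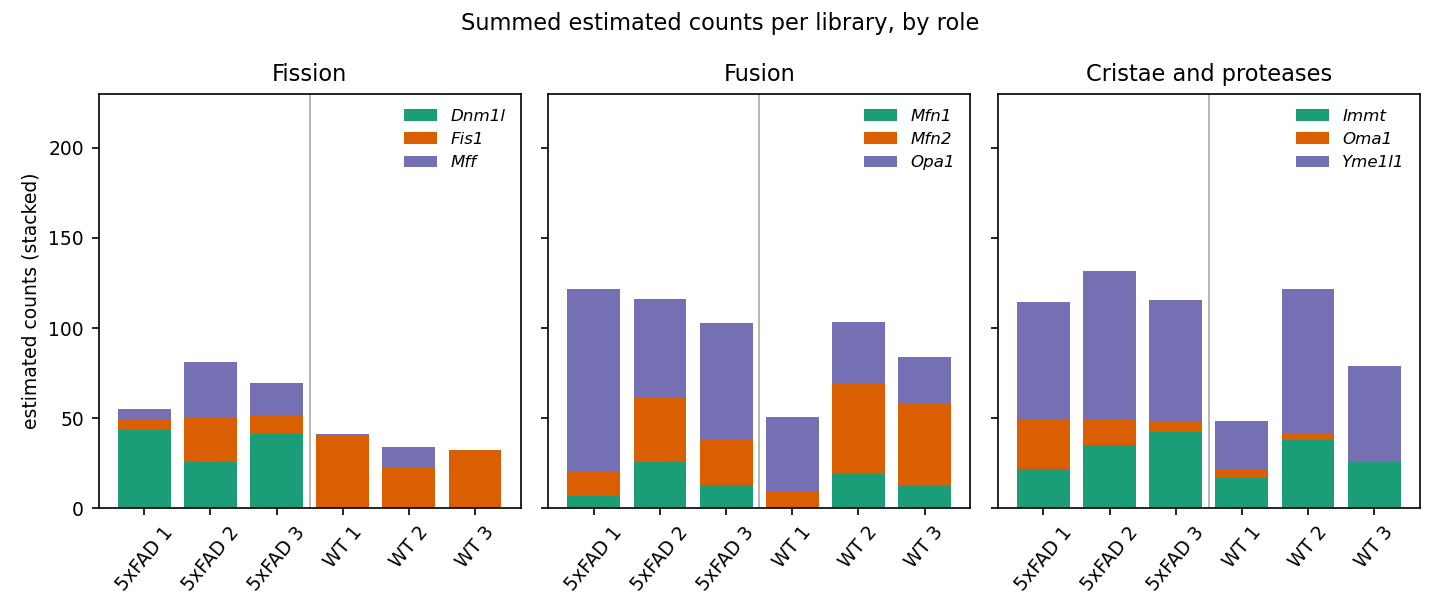
Estimated counts of 9 of the genes stacked within each library (bars start at 0), for fission, fusion, and crista and protease genes, with 5xFAD libraries left of the line and WT libraries right of it. Dnm1l adds 25.5 to 43.4 counts to each 5xFAD bar and none that can be seen to the WT bars.

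Per length, Dnm2 had the highest mean level in both genotypes, 45.3 ± 34.1 FPKM in 5xFAD and 25.1 ± 13.0 FPKM in WT (SD, n = 3 each). After it came Yme1l1, Fis1, Mff, Immt, Opa1, Oma1, Dnm1l, Mfn1 and Mfn2 in 5xFAD, from 18.2 down to 4.09 FPKM. In WT the order was Fis1, Mfn2, Yme1l1, Immt, Opa1, Oma1, Mfn1, Mff and Dnm1l, from 25.1 down to 0.00338 FPKM. Each gene overlapped in range with the next in order, in both genotypes, except that the next above Dnm1l in WT, Mff, overlapped it only through the WT library in which Mff was listed at 0. Dnm1l in 5xFAD, at 4.65 ± 1.26 FPKM, therefore stood at the level of Oma1 and the mitofusins, and not apart from them.

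The wider machinery was read through 9 lists of genes that work with these 10, of which 97 were in the table and 79 were tested. None was called by edgeR, by DESeq2 or by limma after adjustment over all genes. At an unadjusted edgeR p under 0.05 there were 4 higher and 3 lower of the 79, where 8.46% and 3.55% of all tested genes passed by edgeR. DESeq2 gave 3 and 5, and limma 5 and 3, and the shares of all genes by those tools were not counted. Receptors and regulators of fission had 6 of 10 tested members positive, with a median log2 fold change of 0.48 that was 0.01 without WT replicate 1 and 0.03 from a mean of 5 FPKM. Senp5, a SUMO protease known to act on Drp1, was at 19.5, 2.63 and 3.91 FPKM in 5xFAD, against 2.88, 1.86 and 0.553 FPKM in WT (log2 fold change 2.43, SE 0.93; edgeR adjusted p = 0.312). March5, a ubiquitin ligase of the outer membrane, was at 6.47 ± 6.74 FPKM in 5xFAD and 8.48 ± 5.07 FPKM in WT, and Mtfr1 at 4.75 ± 1.46 and 9.67 ± 8.83 FPKM (SD, n = 3 each). Helpers of fusion had 3 of 4 positive, a median of 0.25 (between -0.42 without WT replicate 3 and 1.14 without WT replicate 2), with Mtch2 at 11.9 ± 8.07 FPKM in 5xFAD and 22.2 ± 26.9 FPKM in WT and Stoml2 at 9.81 ± 2.55 and 11.0 ± 12.6 FPKM. Partners of Immt in MICOS and outer membrane assembly had 4 of 6 positive and a median of 1.13, which was 0.57 without 5xFAD replicate 2 and 1.83 without WT replicate 1. Their most abundant genes were Minos1, at 8.83 ± 7.83 FPKM in 5xFAD and 25.6 ± 11.5 FPKM in WT, and Chchd3, at 14.3 ± 12.6 and 10.7 ± 10.1 FPKM.

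Inner membrane proteases and prohibitins had 5 of 9 positive, with a median of 0.06. That median lay between -0.17 without 5xFAD replicate 2 and 0.44 without WT replicate 3. It was -0.05 with counts summed per locus and 0.66 with replicate number as a block. Parl was at 15.4 ± 8.54 FPKM in 5xFAD and 18.3 ± 22.6 FPKM in WT, and Phb2 at 12.3 ± 0.529 and 9.45 ± 4.53 FPKM. The matrix protease Lonp1 was at 0.522, 3.95 and 2.40 FPKM in 5xFAD, against 5.00, 6.47 and 11.4 FPKM in WT, groups that do not overlap (log2 fold change -1.96, SE 0.85; edgeR adjusted p = 0.350). Lonp1 was named for a small unadjusted p, which favours groups without overlap. In FPKM, 4.42% of all tested genes had every 5xFAD library below every WT library. Clpp, another matrix protease, was listed at 0, 0.436 and 0 FPKM in 5xFAD and at 8.24, 7.41 and 0 FPKM in WT (edgeR adjusted p = 0.337). Mitophagy genes had 3 of 9 positive (median -0.29, between -0.51 without 5xFAD replicate 3 and -0.06 without WT replicate 1); the autophagy adaptors Sqstm1 and Tax1bp1 were at 30.9 ± 2.81 and 28.5 ± 6.20 FPKM in 5xFAD and at 31.1 ± 6.07 and 34.8 ± 5.70 FPKM in WT. Fundc1, a mitophagy receptor, was at 0, 3.66 and 4.42 FPKM in 5xFAD and listed at 0 in WT (edgeR adjusted p = 0.411). Genes of transport along microtubules split 2 to 2 (median 0.07, between -0.31 without WT replicate 3 and 0.44 without WT replicate 1), with Rhot2 at 15.2 ± 8.54 FPKM in 5xFAD and 22.7 ± 7.36 FPKM in WT and Kif5b at 17.3 ± 8.92 and 11.4 ± 8.65 FPKM.

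The list of other dynamin-like genes had 2 of 8 positive. Its median of -0.65 was -0.20 without WT replicate 2 and -0.04 with counts summed per locus. Ehd1, Ehd2, Ehd3 and Ehd4 were all negative (-0.67, -0.02, -2.03 and -0.63). Of the others, Atl2 (1.34) and Atl3 (0.19) were positive and Dnm1 (-1.35) and Mx1 (-1.64) negative. Ehd4 and Ehd1, of endosomal recycling, were at 21.4 ± 4.22 and 14.9 ± 9.38 FPKM in 5xFAD, against 46.6 ± 34.2 and 31.3 ± 11.1 FPKM in WT (edgeR adjusted p = 0.497 and 0.656). Clathrin endocytosis partners of Dnm2 had 10 of 13 positive, with a median of 0.34 that was 0.15 without 5xFAD replicate 2 and 0.70 without WT replicate 2. Bin1, a membrane-bending protein that binds dynamin, was at 12.7, 12.7 and 10.7 FPKM in 5xFAD, against 3.45, 3.99 and 1.30 FPKM in WT, without overlap (log2 fold change 2.01, SE 0.80; edgeR adjusted p = 0.324). Itsn2, an endocytic scaffold, was at 21.6, 21.5 and 14.1 FPKM in 5xFAD, against 10.6, 8.44 and 10.3 FPKM in WT, also without overlap (log2 fold change 0.85, SE 0.37; edgeR adjusted p = 0.354). Bin1 and Itsn2 were named for a small unadjusted p, which favours groups without overlap. In FPKM, 13.0% of all tested genes had every 5xFAD library above every WT library. Cltc, the clathrin heavy chain, was at 40.6 ± 17.0 FPKM in 5xFAD and 43.9 ± 24.3 FPKM in WT, and Ap2m1 at 28.8 ± 13.9 and 16.3 ± 16.9 FPKM. Genes taken as a reading of mitochondrial content had 7 of 16 positive, with a median of -0.47 in counts and -0.04 on log2(FPKM + 1). In counts the median was -0.24 without WT replicate 3, -0.14 with replicate number as a block and -0.73 from a mean of 5 FPKM. Atp5a1, the alpha subunit of ATP synthase, was at 29.9, 30.5 and 22.7 FPKM in 5xFAD, against 134, 47.2 and 87.1 FPKM in WT (log2 fold change -0.96, SE 0.41; edgeR adjusted p = 0.347). Polg was at 14.7 ± 4.82 FPKM in 5xFAD and 24.9 ± 23.3 FPKM in WT.

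**Figure D5:**
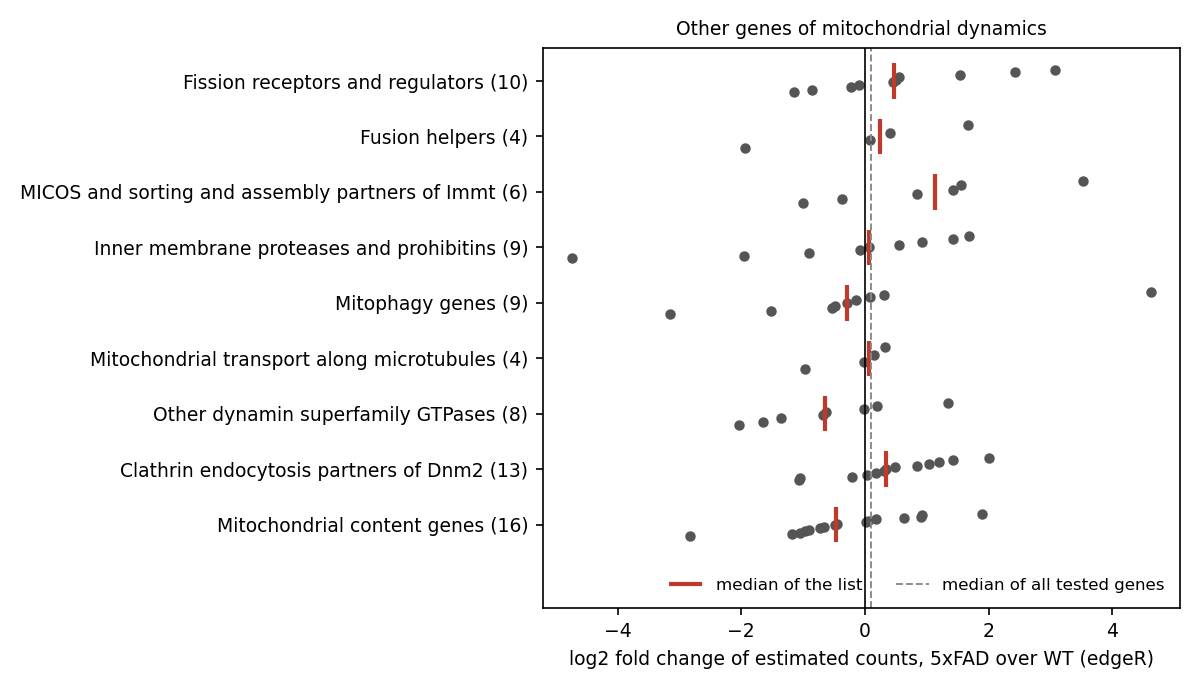
edgeR log2 fold change of estimated counts, 5xFAD over WT, of each tested gene (grey points) in 9 lists around fission and fusion, with the number tested in brackets; red lines are list medians and the dashed line the median of all tested genes. List medians lie between -0.65 and 1.13, with single genes spread widely on both sides of 0.

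The summed RNA of some marker lists, and depth, differed between the genotypes beside Dnm1l and Opa1. The summed level of the 12 B cell markers was 417 to 765 FPKM in 5xFAD libraries and 315 to 371 FPKM in WT libraries, without overlap, and all 12 were positive. The 10 endothelial markers summed to 368 to 453 FPKM in 5xFAD and 440 to 545 FPKM in WT, with 9 negative. T cell markers (7 in the table) summed to 14.6 to 29.2 FPKM in 5xFAD and 1.84 to 10.5 FPKM in WT. Of the 5 tested, 4 were positive and 1, Cd4, was negative. Most of that sum in 5xFAD was Lck, at 10.7, 13.1 and 21.0 FPKM in 5xFAD against 0.865, 3.06 and 1.11 FPKM in WT. Cd3e was at 2.66, 2.87 and 2.09 FPKM in 5xFAD against 0, 3.05 and 0.396 FPKM in WT. Cd3g was at 0, 5.28 and 1.02 FPKM in 5xFAD, Cd8a at 0.497, 0.629 and 1.52 FPKM, and both were listed at 0 in WT. Cd3d, which was not tested, was at 0 in 5xFAD and at 4.54, 0.835 and 0 FPKM in WT. The 8 macrophage markers summed to 186 to 486 FPKM in 5xFAD and 219 to 349 FPKM in WT, the 6 neutrophil markers to 244 to 548 and 194 to 500 FPKM with Ly6g at 0 in all, and the 8 epithelial markers to 187 to 235 and 203 to 411 FPKM. Fibroblast and smooth muscle markers (7) summed to 56.9 to 152 FPKM in 5xFAD and 53.2 to 93.8 FPKM in WT, and NK cell markers (7) to 5.15 to 18.1 and 9.72 to 20.3 FPKM, with Klrd1 at 0 in all. Total counts and the number of detected genes were also higher in each 5xFAD library than in each WT library, though the nearest libraries were close. Total counts were 693172 in 5xFAD replicate 1 and 692912 in WT replicate 2, with 10490 and 10381 genes of at least 0.5 counts. The part of these differences in the values of the 10 genes was not tested.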

How the data were processed

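The deposited table holds, per the file headers, FPKM values and count values for 22564 protein-coding gene rows in each of the 6 samples; cutadapt 1.9.3, HISAT2 2.0.4, Cufflinks and Cuffdiff are named without roles, with the builds mm10 and GRCm38, in the submitters' processing notes. The strand setting and the annotation release were not found in the labels or headers. The deposited counts are estimated counts, not whole numbers. Of values from 0.5 fragments up, 93.9% to 97.3% in a library were whole multiples, within 0.05, of 1 fragment, which was worth 0.917 to 1.04 counts, and library totals came to 604521 to 827040 fragments. Columns were matched to samples by their descriptions. Rows sharing a symbol were summed, giving 22481 genes.

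Counts were rounded and tested with edgeR 4.0.16 (quasi-likelihood, TMM, genotype as the only term) under R 4.3.3, for 9651 genes averaging 1 FPKM or more, with Benjamini-Hochberg adjustment over all genes at 0.05. The SE of a log2 fold change is its size divided by the root of its F statistic. limma 3.58.1 on log2(FPKM + 1) and DESeq2 1.42.0 were alternatives. The fit was tested on simulated data. No pair of libraries agreed within sampling noise (chi-square per degree of freedom 6.23 to 20.6). The genes and lists were chosen with earlier results of these data known. Named list genes were the 2 most abundant of each list and up to 2 more with the smallest unadjusted p under 0.05. The genes likest to Dnm1l were the 5 with the highest correlation, predicted genes left out. List genes were matched by symbol, and 3 by gene identifier. Values of some genes are not reported here. Locus starts were raised by 1 to count from 1.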

Additional observations from a re-analysis of the deposited data

How the results depend on the processing

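The direction of Fis1, Mff, Mfn2, Opa1 and Oma1 held in every alternative that tested them, and that of Dnm1l too; Mfn1, Yme1l1, Immt and Dnm2 turned in 2, 1, 2 and 7 alternatives, where their values lay between -0.29 and 0. The number of the 10 genes with a positive value was 8, and 4 among the 7 genes left from a mean of 5 FPKM (7 with upper quartile factors or the replicate block, and 5 to 7 with 1 library left out). Genes called higher and lower over the whole table, 10 and 1, became 6 and 1 with RLE factors, 19 and 8 with upper quartile factors, 53 and 9 with no filter, 5 and 0 from a mean of 5 FPKM, 54 and 8 by DESeq2, 0 and 0 by limma with either pseudocount, and 6 and 0 with counts summed per locus. With 1 library left out they ran from 3 to 56 higher and from 0 to 22 lower. The replicate block gave 21 and 5. Same-numbered samples had correlations of -0.017 to 0.022, and differently numbered samples of -0.035 to 0.023. No shared variation was seen, but a check on 3 libraries per group cannot exclude a pairing. The cause of these moves was not tested. With a fragment worth about 1 count, genes under 10 counts are limited by depth.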
